A study of Mus musculus with 9 samples.

Results

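The genes described here encode potassium channels and mechanosensitive or other calcium-permeable channels, among them channels through which endothelium senses and answers blood flow. The set was given as 10 gene symbols: the potassium channels Kcnn3, Kcnn4, Kcnj2 and Kcnj8, the transient receptor potential (TRP) family channels Trpv4, Trpc6 and Pkd2, the Piezo channels Piezo1 and Piezo2, and the ATP-gated P2rx4. Of these, 9 of 10 were named on a transcript cluster, the array's unit for a gene, out of 30142 genes so named. Each of the 9 had 1 cluster. Pkd2 was named on no cluster in the annotation used here and was not analysed.

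The 9 arrays hold thoracic aortic endothelial RNA from 4 control and 5 ACDiEKO mice, 1 aorta per array. ACDiEKO mice carried Mef2a f/f, Mef2c f/f and Mef2d f/f with Cdh5-CreERT2(+), a tamoxifen-switched recombinase driven by the promoter of the endothelial cadherin gene. Control mice carried the same 3 floxed genes, were Cdh5-CreERT2(-) littermates and received tamoxifen as well. All mice were female and 10 weeks old when the 5 daily injections were given. Harvest is placed 7 days after the first injection in the series text and 14 days after it in the sample protocols. Since no control carried the recombinase, effects of the recombinase and of MEF2 loss cannot be told apart.

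Shear stress and stretch open cation channels in the endothelial membrane, and the calcium that enters switches on calcium-activated potassium channels. Potassium leaves the cell, the membrane hyperpolarizes, and the change spreads through gap junctions to the smooth muscle, which relaxes. Arteries use this route beside nitric oxide to set their diameter. MEF2 factors are activated by the flow-responsive MEKK3 and ERK5 kinases.

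Values are log2 RMA values as deposited, and differences are ACDiEKO minus control in these units. The table runs from 2.58 to 19.34, past the 16 log2 units of a scanner, so a difference is not read as a fold. The filter asked for 4 or more arrays over 6.165, the median of all deposited values, and 16403 genes passed it. Of the 9 measured members, 5 were tested (Kcnn3, Kcnn4, Trpv4, Piezo1 and P2rx4) and 4 lay below the filter (Kcnj2, Kcnj8, Trpc6 and Piezo2). ACDiEKO replicates 1 and 2 were nearly identical. Over bright clusters their difference had a robust SD of 0.0707, while the other 15 within-group pairs ranged from 0.268 to 0.401. They were averaged, so 4 control and 4 ACDiEKO samples were compared with limma, with Benjamini-Hochberg adjustment over all tested genes at 0.05. The floxed genes did not check the labels: Mef2a differed by 0.12, Mef2c by 0.06 and Mef2d by 0.23, and none passed. Each value sums up probes along the transcript, and why these genes did not fall was not tested. The number of arrays limits the precision. In RNA from a tissue, fewer cells of a type and less RNA per cell cannot be told apart.

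Of the 5 tested members, 3 fell in ACDiEKO (Kcnn3, Kcnn4 and Trpv4) and none rose. Over the 16403 tested genes 2666 were called, 16.3% in either direction, with 1463 higher (8.92%) and 1203 lower (7.33%). After median centring the split was 1851 higher and 960 lower, and after quantile normalization 1970 and 1038. The sample ranges of the same 3 members did not overlap, with ACDiEKO lower, as for 11% of all tested genes (23% in either direction, 12% with ACDiEKO higher). The median difference was -0.88 over the 5 tested members and -0.03 over all tested genes. In a fit with no filter, over 30142 genes, 2 members were called (Kcnn3 and Kcnn4), where 6.54% of all genes were.

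The promoters shown are those of the 3 genes called lower, since MEF2 factors and the flow-induced Krüppel-like factors bind DNA. Each is the stretch of 250 bases before the RefSeq transcription start in GRCm38.p6, on the gene's own strand, at chr3:89519914-89520163 (+ strand), chr7:24370013-24370262 (+ strand) and chr5:114658422-114658671 (- strand). Capitals mark CACCC, the core of the box bound by Krüppel-like factors, or its reverse complement GGGTG.
Kcnn3: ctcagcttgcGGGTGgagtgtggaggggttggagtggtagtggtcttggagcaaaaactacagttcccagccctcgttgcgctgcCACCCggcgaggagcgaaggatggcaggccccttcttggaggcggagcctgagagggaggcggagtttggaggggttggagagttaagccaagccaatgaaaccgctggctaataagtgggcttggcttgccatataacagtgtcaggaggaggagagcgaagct
Kcnn4: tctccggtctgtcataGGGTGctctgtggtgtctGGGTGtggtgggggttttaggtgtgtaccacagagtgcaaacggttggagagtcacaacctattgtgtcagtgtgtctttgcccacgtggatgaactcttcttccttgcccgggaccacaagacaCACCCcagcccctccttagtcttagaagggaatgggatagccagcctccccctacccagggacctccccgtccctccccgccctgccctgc
Trpv4: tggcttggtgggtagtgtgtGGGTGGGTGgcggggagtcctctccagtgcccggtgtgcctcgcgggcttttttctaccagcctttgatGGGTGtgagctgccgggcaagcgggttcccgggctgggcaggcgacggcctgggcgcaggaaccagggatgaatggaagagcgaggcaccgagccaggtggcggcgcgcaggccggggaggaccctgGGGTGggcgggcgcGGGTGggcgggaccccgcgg
CACCC occurred 2 times before Kcnn3, 3 times before Kcnn4 and 5 times before Trpv4, counting both strands and allowing overlaps. In windows of 300 bases around the starts of mouse genes (250 before, 50 after), 57.5% of 32851 held it at least once and 1.02% held it 5 times or more. Kcnj8, which lay below the filter, also had 5. P2rx4 had 2, Kcnj2, Pkd2 and Piezo1 had 1 each, and Trpc6 had none, so the box was not particular to the genes that fell. The 250 bases were 72% G or C before Trpv4 and 74% before Piezo1, and the shares over all windows were not matched for this. The MEF2 consensus, searched on both strands, was in 3.19% of all windows and in none of the windows searched for members. These are matches of letters in a short window and show no binding. Windows were found for 9 of the 10 members, and Piezo2 was not searched.

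The 2 calcium-activated potassium channels were lower in ACDiEKO. Kcnn3 encodes the small-conductance channel SK3 and Kcnn4 the intermediate-conductance channel IK1, and both are opened by calcium bound to calmodulin. Kcnn3 read 11.11, 10.96, 12.15 and 11.54 in control replicates 1 to 4. In ACDiEKO it read 8.45 in the averaged replicates 1 and 2, 9.54 in replicate 3, 8.44 in replicate 4 and 8.64 in replicate 5. Every ACDiEKO sample lay below every control, with a gap of 1.42 between the groups. The means were 11.44 ± 0.54 and 8.77 ± 0.52 (SD, n = 4 and 4), so Kcnn3 fell by 2.67 (SE 0.33, 95% interval -3.42 to -1.92, limma adjusted p = 0.00204). By absolute size this was rank 90 of the 16403 tested genes.

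Kcnn4 read 10.94, 9.44, 11.07 and 11.35 in control replicates 1 to 4. In ACDiEKO it read 8.38 in the averaged pair, 8.92 in replicate 3, 7.79 in replicate 4 and 8.25 in replicate 5. The groups did not overlap, and the gap of 0.52 lay between control replicate 2 and ACDiEKO replicate 3. The means were 10.70 ± 0.86 and 8.33 ± 0.46, and Kcnn4 fell by 2.37 (SE 0.42, 95% interval -3.34 to -1.39, limma adjusted p = 0.0086). Control replicates 3 and 4 carry animal numbers from another run than the remaining mice. Leaving both out gave a Kcnn4 difference of -1.85 and ended the call (adjusted p = 0.0788). Kcnn3 then differed by -2.26 (adjusted p = 0.0245). The difference Kcnn3 minus Kcnn4 within a sample was 0.74 ± 0.67 in control and 0.43 ± 0.27 in ACDiEKO, and the groups overlapped.

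**Figure D1:**
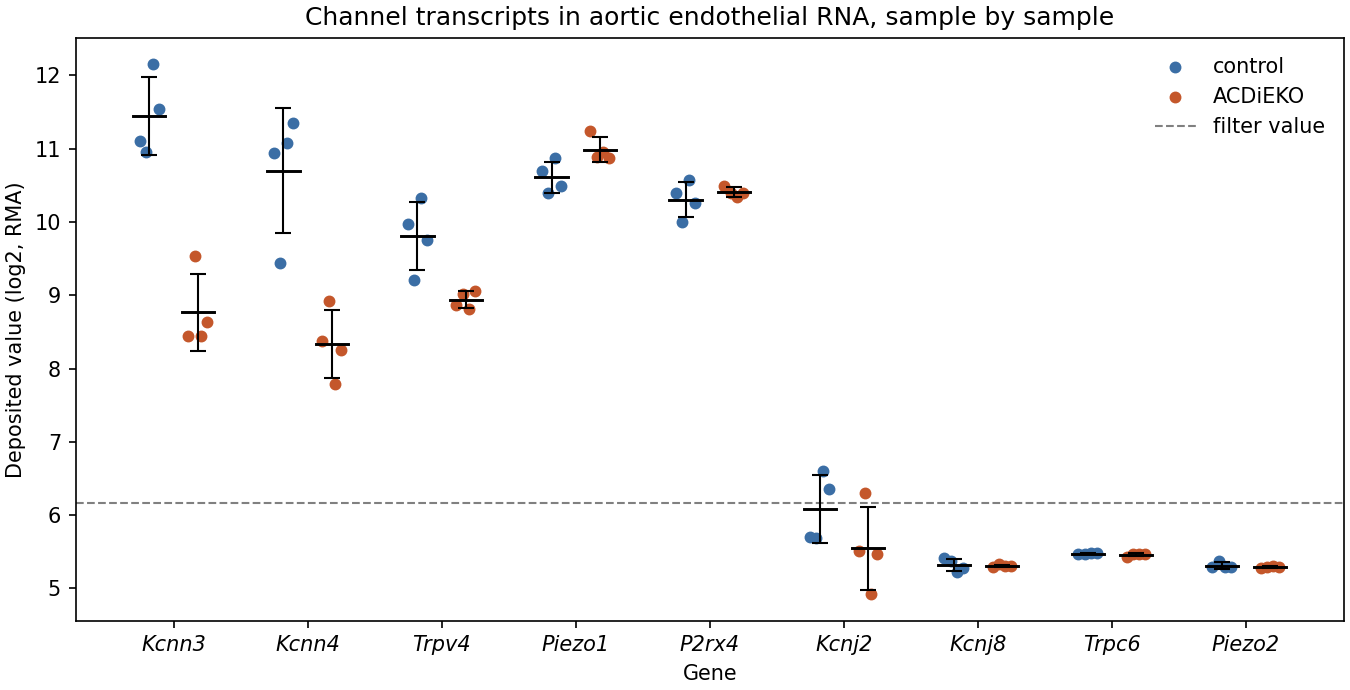
Deposited log2 values of the 9 measured members in the 4 control and 4 ACDiEKO samples, 1 point per sample, with mean and SD (bars). The dashed line is the filter value of 6.165. Levels of different genes come from different probes and are not comparable, whereas Kcnn3, Kcnn4 and Trpv4 show no overlap between groups.

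The other 2 potassium channels lay below the filter. Kcnj2 encodes Kir2.1, an inward rectifier that carries a shear-sensitive potassium current in endothelial cells. It read 5.70, 5.69, 6.60 and 6.35 in control replicates 1 to 4, and 5.51, 6.30, 4.92 and 5.47 in the ACDiEKO samples. The groups overlapped, and 3 of 9 arrays were above the filter value. In a fit with no filter Kcnj2 differed by -0.53 (SE 0.34, limma adjusted p = 0.396). Its spread within groups (SD 0.52) was at the 98.9 percentile of the genes below the filter. Control replicate 3 was the highest control and ACDiEKO replicate 3 the highest ACDiEKO sample for both Kcnj2 and Kcnn3.

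Kcnj8 encodes Kir6.1, the pore of the vascular ATP-sensitive potassium channel, and is known from pericytes and smooth muscle. All 9 arrays lay between 5.22 and 5.41, and the difference was -0.01 (95% interval -0.12 to 0.09). Its sulfonylurea receptor partner Abcc9 was also below the filter (5.72 ± 0.13 and 5.61 ± 0.06).

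Among the TRP members, Trpv4 fell. TRPV4 is a calcium-permeable channel opened by flow, cell swelling and epoxyeicosatrienoic acids, and in endothelium it acts upstream of SK3 and IK1. Trpv4 read 9.97, 9.21, 10.32 and 9.75 in control replicates 1 to 4. In ACDiEKO it read 8.87 in the averaged pair, 9.01 in replicate 3, 8.81 in replicate 4 and 9.06 in replicate 5. The groups did not overlap, but only 0.16 separated control replicate 2 from the highest ACDiEKO sample, and the ACDiEKO samples were close together. The means were 9.81 ± 0.46 and 8.94 ± 0.11, and Trpv4 fell by 0.88 (SE 0.21, 95% interval -1.37 to -0.39, limma adjusted p = 0.0275).

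The Trpv4 call ended without control replicate 1 (adjusted p = 0.0674), control replicate 4 (0.0626), the averaged ACDiEKO replicates 1 and 2 (0.0697), ACDiEKO replicate 3 (0.0539) or ACDiEKO replicate 4 (0.0787), and with no filter (0.0641). It also ended when control replicates 3 and 4 were both left out (difference -0.65, adjusted p = 0.129). Kcnn3 minus Trpv4 within a sample went from 1.63 ± 0.33 in control to -0.17 ± 0.47 in ACDiEKO, and Kcnn4 minus Trpv4 from 0.89 ± 0.57 to -0.60 ± 0.40. For both pairs every ACDiEKO sample lay below every control, with no test made.

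Trpc6, a cation channel opened by diacylglycerol, stayed between 5.40 and 5.48 on all arrays, and 5 of 9 arrays carried the same deposited value. Its difference was -0.02 (95% interval -0.07 to 0.04).

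Piezo1, which forms the main shear-gated cation channel of endothelial cells, did not pass the test. It read 10.69, 10.39, 10.87 and 10.49 in control replicates 1 to 4. In ACDiEKO it read 11.24 in the averaged pair, 10.88 in replicate 3, 10.95 in replicate 4 and 10.87 in replicate 5. Most ACDiEKO samples lay above every control, and the groups met at 10.87, read by control replicate 3 and ACDiEKO replicate 5. The means were 10.61 ± 0.21 and 10.98 ± 0.17, a difference of 0.37 (SE 0.13, 95% interval 0.08 to 0.67, limma adjusted p = 0.0861). Piezo1 passed after quantile normalization (0.44, adjusted p = 0.0373) and with all 9 arrays as samples (0.42, adjusted p = 0.0415). The fit of 9 arrays counts the near-identical ACDiEKO replicates 1 and 2 as 2 samples, and these had the highest Piezo1 values (11.31 and 11.17). Piezo1 passed in no fit that left out a single sample (0.29 without the averaged pair, limma adjusted p = 0.177).

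Piezo2, the touch and proprioception channel of sensory neurons, was listed between 5.27 and 5.38, with 6 of 9 arrays at the same deposited value. Its difference was -0.02 (95% interval -0.09 to 0.05). The array's 23 background features of graded base composition had means from 2.85 to 6.92 over the arrays, with a median of 3.64. All values of Kcnj2, Kcnj8, Trpc6 and Piezo2 lay within that range and above its median, and the top of the range lay above the filter value. No change of these 4 genes was detected at this signal.

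P2rx4 encodes an ATP-gated cation channel that admits calcium when flow releases ATP. It read 10.39, 10.00, 10.57 and 10.26 in control replicates 1 to 4, and 10.49, 10.40, 10.34 and 10.40 in the ACDiEKO samples. The ACDiEKO samples lay inside the control range. The difference was 0.10 (SE 0.12, 95% interval -0.17 to 0.37, limma adjusted p = 0.587).

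**Figure D2:**
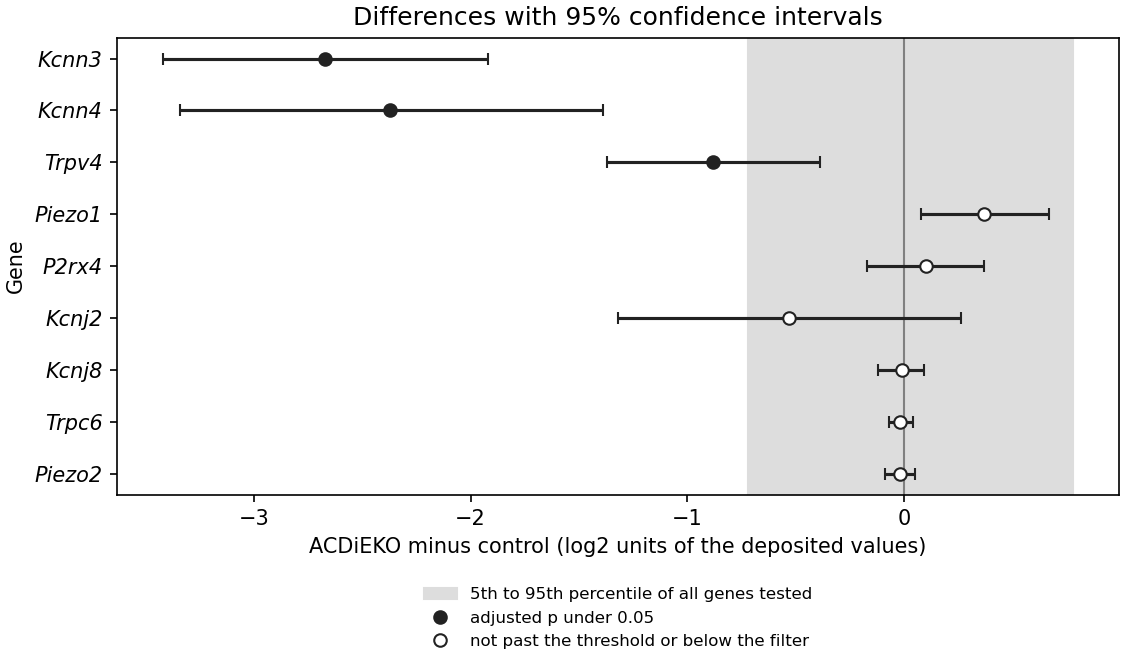
Difference ACDiEKO minus control (log2 units) with its 95% confidence interval from limma for the 9 measured members. The grey band is the 5th to 95th percentile of all tested genes (-0.72 to 0.78); Kcnn3, Kcnn4 and Trpv4 (filled) have their differences below it, and the other differences lie inside.

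Control replicate 2 was the lowest control for all 5 tested members. It also had the lowest mean of the 14 endothelial markers among controls (12.20, against 12.34 to 12.65) and the highest mean of the 9 adipocyte markers (10.25, against 7.96 to 9.61). ACDiEKO replicate 4 was the lowest ACDiEKO sample for Kcnn3, Kcnn4, Trpv4 and P2rx4. It had the lowest endothelial mean of its group (12.17) but also the lowest adipocyte mean (7.01). Whether cell content set these channel levels was not tested. Without control replicate 2 the differences were -2.83 for Kcnn3, -2.79 for Kcnn4 and -1.08 for Trpv4, and each passed. Piezo1 then differed by 0.30 (limma adjusted p = 0.171) and P2rx4 by 0.00. Leaving out the lowest control raises the control mean, so the larger falls follow from the choice of sample and lend the calls no support.

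The levels of other genes were set beside the 3 that fell, by Pearson's r over the 8 samples. This is a description over samples that form 2 groups. Within groups the r of the genes named was 0.92 to 0.99. These genes were picked by r over the same samples, so this is no separate check of likeness. Kcnn3 was most like Fam135a (r = 0.995), the tight junction gene Cldn5 (0.995) and the synaptotagmin Syt7 (0.993). Kcnn4 was most like Nicn1 (0.989), Ankrd12 (0.984) and Mfsd6 (0.983). Trpv4 was most like Plekha2 (0.993), the platelet glycoprotein Gp9 (0.976) and the deubiquitinase Usp25 (0.975). Among these, Gp9 (-0.32) and Usp25 (-0.45) did not pass the test.

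**Figure D3:**
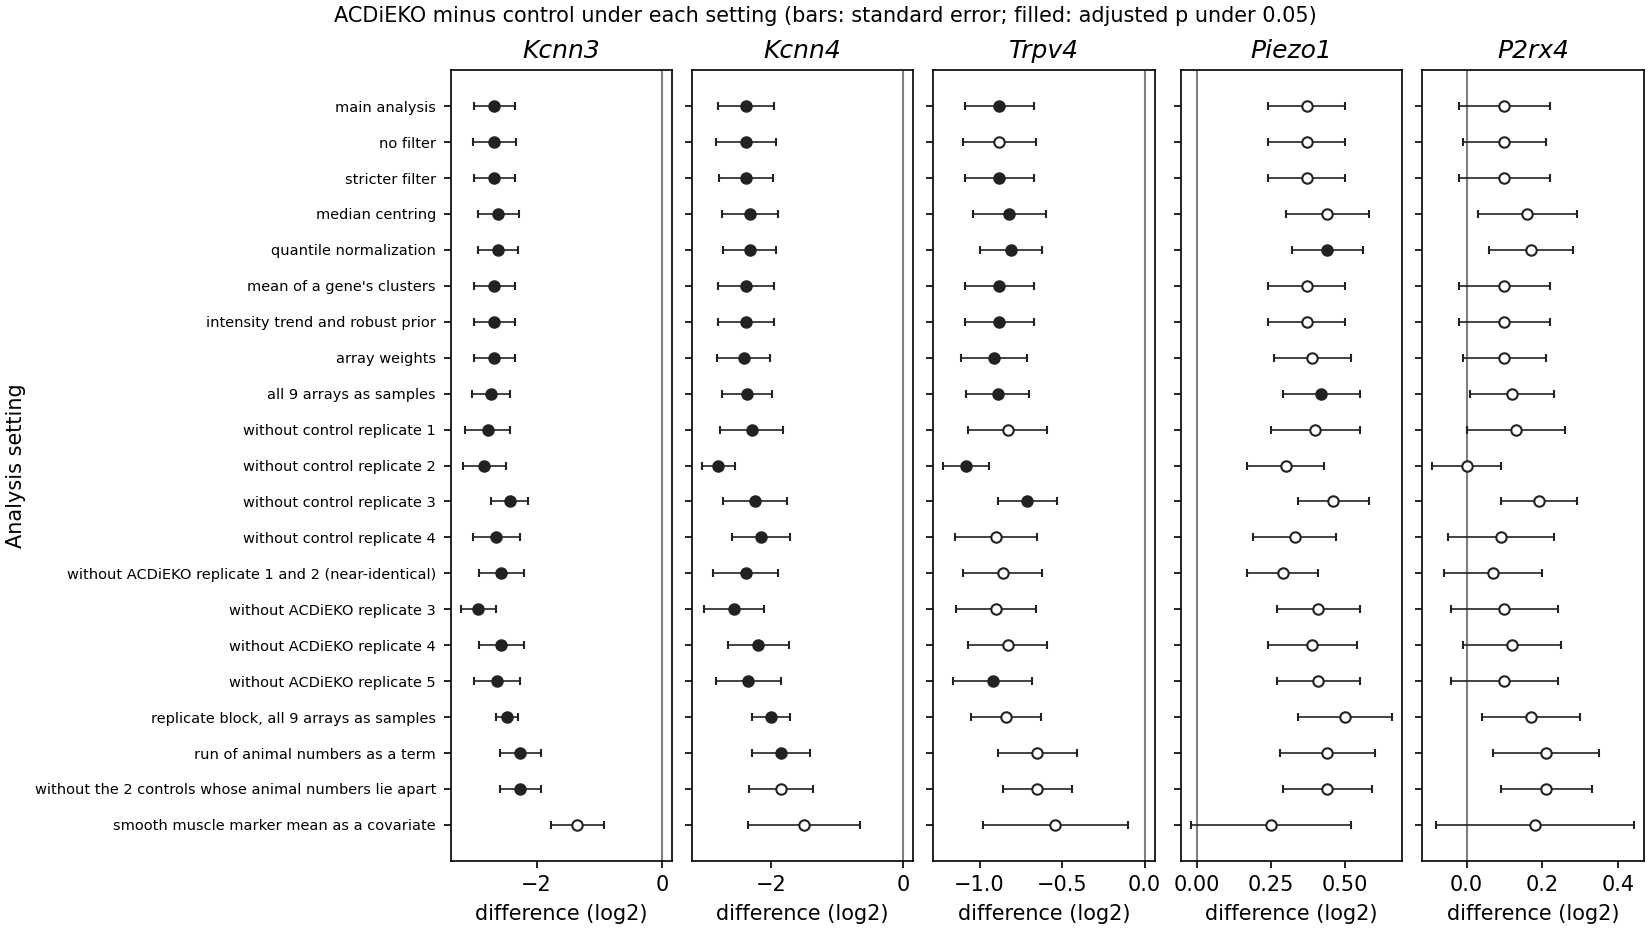
Difference ACDiEKO minus control (log2 units, with standard error) of the 5 tested members under each analysis setting, filled where the adjusted p was under 0.05. Kcnn3 stays between -2.93 and -1.35 and Kcnn4 between -2.79 and -1.50, while Trpv4 is open under many settings. Horizontal scales differ between genes.

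Related channels mostly lay below the filter. There were 104 measured genes in 4 lists of other potassium channels, TRP channels, mechanically gated channels and purinergic genes. Of these 33 were tested, 4 fell and none rose (12.1% called, against 16.3% of all tested genes, median -0.17). Among 12 tested potassium channel genes, 1 fell and none rose (median -0.12). This was Kcne3, a small subunit that modulates voltage-gated channels (9.37 ± 1.24 against 7.08 ± 0.49, difference -2.29, limma adjusted p = 0.0316). The ranges of Kcne3 overlapped, and its call ended without control replicate 1, 3 or 4 or without the averaged pair, ACDiEKO replicate 4 or ACDiEKO replicate 5 (0.0909 without replicate 4). Kcnq1, a voltage-gated channel that can pair with KCNE3, differed by -0.83 (adjusted p = 0.0517), and the two-pore channel Kcnk10 by -0.47 (0.121). The large-conductance channel Kcnma1 of smooth muscle lay below the filter (5.53 ± 0.10 and 5.41 ± 0.06).

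None of the 7 tested TRP and polycystin genes passed (median -0.05). The smallest p belonged to the calcium-activated Trpm4 (-0.28, adjusted p = 0.101), followed by the magnesium-permeable Trpm6 (-0.33, 0.252) and the lysosomal Mcoln1 (0.12, 0.344). Pkd1, whose product pairs with that of Pkd2, differed by 0.04. Of 6 tested mechanically gated channels and Piezo partners, 1 fell: Mdfic, whose product binds Piezo channels as an auxiliary subunit (10.03 ± 0.26 against 9.38 ± 0.19, difference -0.65, adjusted p = 0.022). Its call ended without control replicate 3, the averaged pair or ACDiEKO replicate 4 (0.0637 without replicate 4). The osmosensitive channel Tmem63a differed by -0.48 (0.0977) and Tmem120a by 0.58 (0.148).

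In the purinergic list, 2 of 8 tested genes fell (median -0.36). Nt5e, the ectoenzyme CD73 that turns AMP into adenosine, fell from 13.22 ± 0.67 to 11.22 ± 0.47 (adjusted p = 0.00852). The UDP receptor P2ry6 fell by 1.15 (adjusted p = 0.0298), a call that ended without control replicate 1, 3 or 4, the averaged pair, ACDiEKO replicate 3 or ACDiEKO replicate 4 (0.0851 without ACDiEKO replicate 4). Panx1, through which cells release ATP, differed by 0.19 (0.136), and Entpd1, which degrades ATP, by -0.26.

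In the calcium entry and store release list, 6 of 14 tested genes fell and 1 rose (median -0.50). The 3 calmodulin genes of that list were named on no cluster in the annotation used here. Atp2a3, the SERCA3 calcium pump of the endoplasmic reticulum, fell from 13.26 ± 0.15 to 11.31 ± 0.65 (adjusted p = 0.0043). The phospholipases Plcg1 (-0.76, 0.00494) and Plcb4 (-0.78, 0.0101) fell with it, as did the inositol trisphosphate receptor Itpr2 (-0.80), the store sensor Stim2 (-0.56) and the plasma membrane pump Atp2b1 (-0.52). Itpr2 lost its call without control replicate 2, 3 or 4, the averaged pair or ACDiEKO replicate 5 (adjusted p = 0.0735 without control replicate 2). Stim2 lost it without control replicate 3 or the averaged pair (0.0576 without the pair). Atp2b1 lost it without control replicate 3 or 4, the averaged pair, or ACDiEKO replicate 4 or 5 (0.108 without ACDiEKO replicate 4). Atp2a2, the SERCA2 pump, rose by 0.69 (adjusted p = 0.0183), a call that ended without the averaged pair or ACDiEKO replicate 4 (0.0549).

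In the dilator and gap junction list, 4 of 13 tested genes fell and 1 rose (median -0.43). Nitric oxide synthase Nos3 fell from 13.19 ± 0.29 to 10.95 ± 0.49, and Gch1, which makes its cofactor, from 10.84 ± 0.25 to 8.59 ± 0.37. The arterial connexin Gja5, which passes hyperpolarization between endothelial cells, fell from 15.36 ± 0.25 to 12.80 ± 1.01, and Gjc1 by 0.45. Ephx2, which degrades the lipids that open TRPV4, rose by 0.79 (adjusted p = 0.0329). The Ephx2 call ended without control replicate 3 or 4 or ACDiEKO replicate 3, 4 or 5 (0.0857 without control replicate 4). When control replicates 3 and 4 were both left out, Plcg1 (adjusted p = 0.0235), Gch1 (0.0176) and Nos3 (0.0272) still passed. Nt5e (0.0504), Atp2a3 (0.0557), Plcb4 (0.0684), Gja5 (0.0757) and Gjc1 (0.107) then did not. Across all 6 lists, 14 of 60 tested genes fell and 2 rose (26.7% called, against 16.3% of all tested genes). The lists differed. The calcium list and the dilator list together had 12 of 27 called (44.4%). The 4 channel and purinergic lists had 4 of 33 called (12.1%), a smaller share than that of all tested genes.

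**Figure D4:**
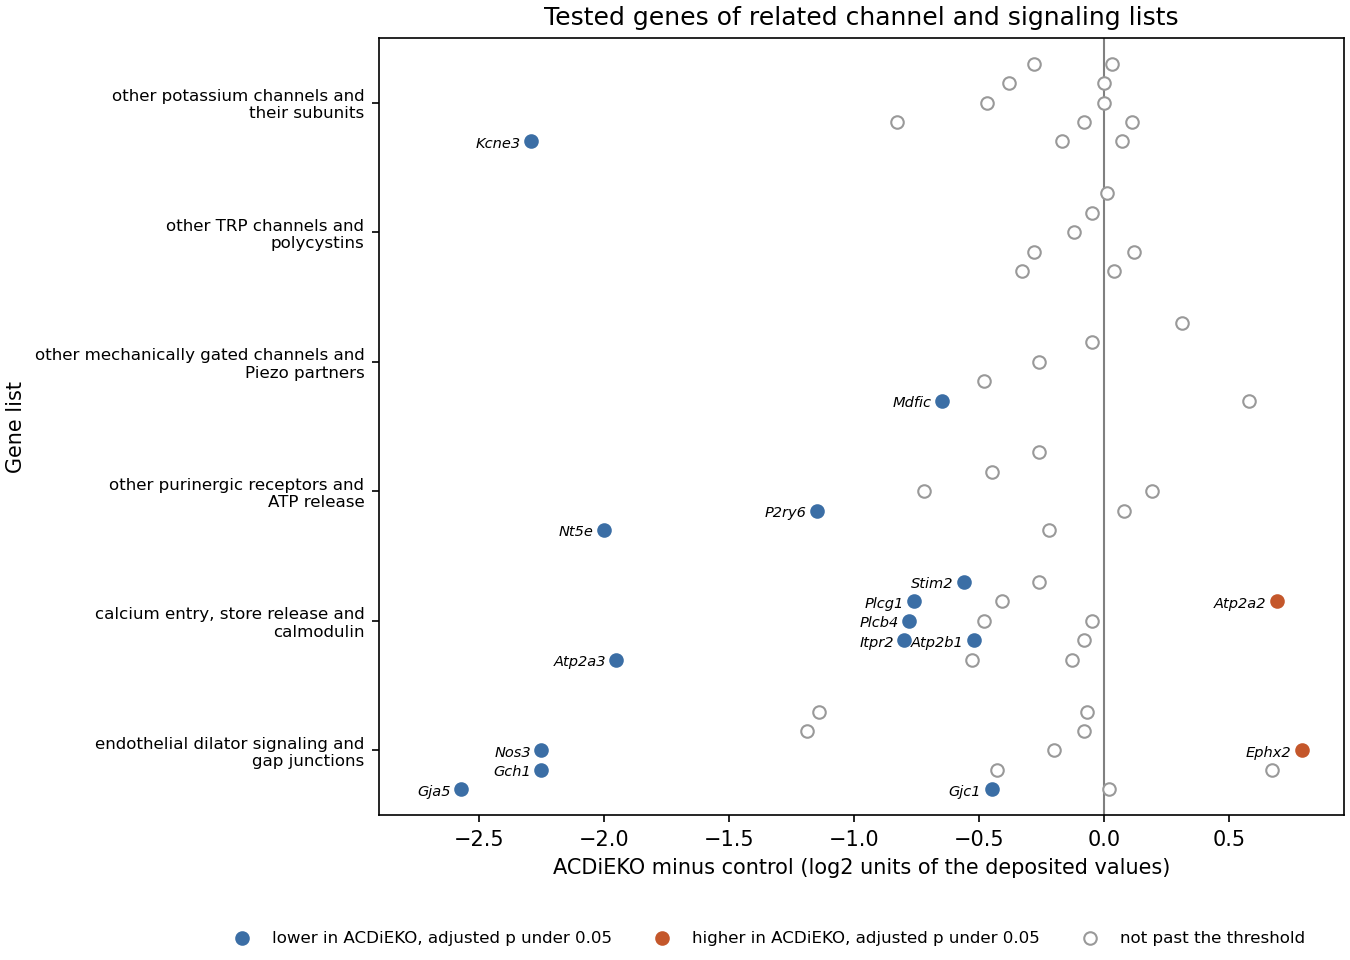
Difference ACDiEKO minus control (log2 units) of the 60 tested genes in 6 related lists, 1 point per gene. Called genes are filled and named: 14 lie to the left of zero and 2 (Atp2a2 and Ephx2) to the right. Vertical offsets within a list only separate the points.

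Cell type markers were read on the same arrays. The 14 measured endothelial markers were all tested, with means of 12.20 to 12.65 in control and 12.17 to 12.62 in ACDiEKO samples. Of these 3 rose and 4 fell. The 3 that rose were Emcn (3.72, the largest change of the list, adjusted p = 0.00249), Eng (1.53) and the VEGF receptor Kdr (0.96). The 4 that fell were Cldn5 (-3.59), the angiopoietin receptor Tek (-1.92), Icam2 (-0.58) and the junction molecule Pecam1 (-0.37, from 17.60 ± 0.07 to 17.23 ± 0.13). Cdh5 differed by 0.25 (adjusted p = 0.226). With control replicates 3 and 4 both left out, Tek (adjusted p = 0.0541), Icam2 (0.0801), Pecam1 (0.0836) and Eng (0.0844) did not pass. Pecam1 also lost its call without the averaged pair (0.0537). Kdr lost its call without control replicate 1, 2 or 4, the averaged pair, or ACDiEKO replicate 3 or 4 (0.0798 without the pair). The smooth muscle marker mean was higher in ACDiEKO (14 genes, 9.10 to 9.90, against 8.01 to 8.84), and 7 of 12 tested markers rose. Acta2 rose by 3.19 and Tagln by 3.82. The 5 that did not pass were Mylk (0.43), Myh11 (-0.04), Myocd (-0.15), Cnn1 (-0.27) and Itga8 (-0.47). With control replicates 3 and 4 both left out, none of the 7 passed, among them Acta2 (limma adjusted p = 0.0678) and Tagln (0.0597). The cell division list was higher too (9.05 to 9.97, against 6.66 to 6.97). With the mean of the tested smooth muscle markers as a covariate, Kcnn3 differed by -1.35 (SE 0.42, adjusted p = 0.415), Kcnn4 by -1.50 (SE 0.84, 0.684) and Trpv4 by -0.54 (SE 0.44, 0.819). That mean did not overlap between groups, so genotype and marker level cannot be told apart in this fit.

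Of the other marker lists, fibroblast (1 rose and 2 fell of 9 tested), pericyte (1 fell of 3), leukocyte (0 called of 10), erythrocyte and platelet (0 of 5), adipocyte (0 of 8) and mesothelial (0 of 4) means overlapped between groups. The Schwann cell mean was 5.55 to 5.78 in ACDiEKO and 5.78 to 6.17 in control samples, so the groups met at 5.78, with 1 tested gene, S100b, which fell by 1.22. That call ended without control replicate 2, 3 or 4, the averaged pair or ACDiEKO replicate 4 (0.0772 without ACDiEKO replicate 4). ACDiEKO replicate 5 had the highest leukocyte mean (8.66, against 6.85 to 7.22 in the other ACDiEKO samples). The pan-leukocyte marker Ptprc read 6.74 to 7.22 in control and 6.90 to 9.86 in ACDiEKO samples, and the macrophage marker Cd68 7.37 to 7.85 and 7.98 to 9.36 (adjusted p = 0.102). Leukocytes and erythrocytes are known to carry Kcnn4 as well. Of the 3 tested pericyte markers Pdgfrb fell by 1.31, Anpep differed by 0.55 (adjusted p = 0.101) and Notch3 by -0.08, and Rgs5, Cspg4 and the other 2 lay below the filter. The part of these other cells in the channel differences was not tested.

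**Figure D5:**
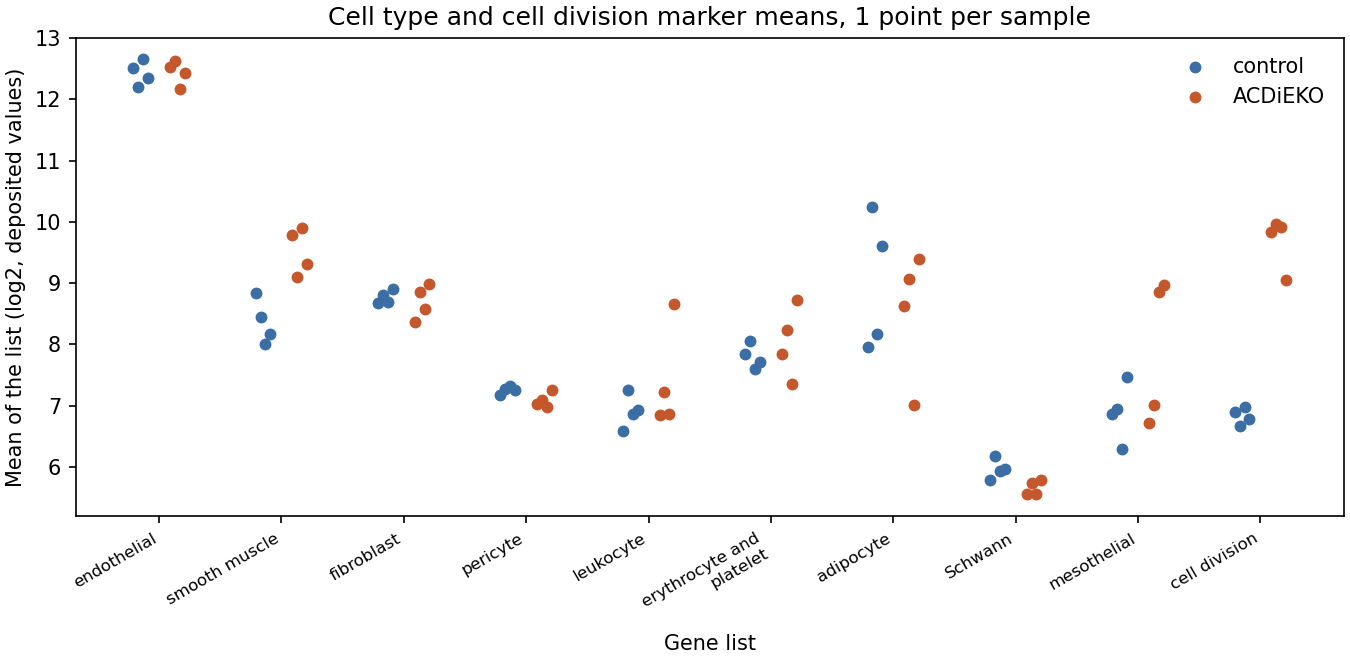
Mean log2 value of each marker list in the 4 control and 4 ACDiEKO samples, 1 point per sample. Smooth muscle and cell division means lie higher in ACDiEKO without overlap, and endothelial means overlap.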

How the data were processed

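Endothelial RNA of 9 aortas (5 ng each, WT Pico amplification, per the labels) was hybridised to the mouse Clariom D array. The authors deposited log2 values made with RMA, per the submitters' processing notes. Its version, the genome build and any later scaling are not given in the sources used here. Of 72688 features, 6732 array controls were left out. Clusters with 1 symbol (30604; 2146 had several and 33206 none listed) were named by the array's annotation, updated through GRCm38.p6 gene IDs (827 symbols), and reduced to the brightest per symbol. The comparison used lmFit and eBayes of limma (version 3.58.1, under R 4.3.3), two-sided, and its code was tested on simulated data. A p-value sets the group difference against the spread between samples within groups, which limma moderates with the spread of all genes in the fit. The titles number 2 controls as 3, and the second is called control replicate 4. Numbers shared between groups were checked as a pairing: deviations of same-numbered arrays correlated at -0.145 to 0.0413. The arrays were treated as unpaired, though so few values, given without differently numbered arrays beside them, cannot exclude a pairing. The members, lists and averaging of 2 arrays were chosen with earlier results of these data known. The text names all members, the 3 genes of smallest p in each related list, the first markers of a list, and the 3 genes most like each member called; the other genes named were chosen after their values were seen. Alternatives were other thresholds, filters, scalings, cluster means, variance models, array weights, the replicate block, animal numbers, a muscle covariate and leaving out each sample. Promoters came from RefSeq. Figures used matplotlib 3.10.9.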

Additional observations from a re-analysis of the deposited data

Results flagged for a closer look

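Among the 18 groups of 4 samples (9 members, 2 groups), 2 held a sample set apart from its 3 fellows, judged by its gap over the range of the group. Trpc6 was 5.43 in the averaged ACDiEKO replicates 1 and 2 and 5.47 in the other ACDiEKO samples. Piezo2 was 5.38 in control replicate 2 and 5.29 in the other controls. Both genes lay below the filter, where most arrays shared 1 value. With 3 samples at the same value the gap equals the range, however small the gap is. The usual rate of about 1 in 20 groups by chance does not hold for such shared values.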

How the results depend on the processing

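Kcnn3 and Kcnn4 kept their direction under all 22 alternatives, with differences of -2.93 to -1.35 and -2.79 to -1.50. Some alternatives could not move a difference: other thresholds, filters and variance models, and cluster means, since each member had 1 cluster. The term for the animals' number run and leaving out control replicates 3 and 4 gave the same differences (-2.26 and -1.85), so they are not separate checks of direction. Kcnn3 lost its call only with the smooth muscle covariate, and Kcnn4 with it and with control replicates 3 and 4 both left out. Trpv4 kept its direction (-1.08 to -0.54) but lost its call in 11 of 22. The number of members called was 1 without those 2 controls (Kcnn3), 0 with the smooth muscle covariate, and 2 to 3 when single samples were left out. The number of genes called was 1035 at an adjusted p of 0.01, 4045 at 0.10, 1692 with a term for the animals' number run, 1127 with control replicates 3 and 4 both left out, and 1680 (without ACDiEKO replicate 4) to 2465 when single samples were left out. With the covariate limma called 0 genes, while 1428 had an unadjusted p under 0.05. With the replicate block and all 9 arrays as samples, 2351 genes and 2 members were called: Kcnn3 (adjusted p = 0.00288) and Kcnn4 (0.0164) passed, and Trpv4 (-0.84, adjusted p = 0.061) did not. Without the block the near-identical arrays count as 2 samples, and the same 9 arrays gave 3710 genes and 4 members. Where a call was lost, the cause was not tested. The 4 dim members are limited by signal within the range of the array's background features, though above their median.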
